A study of Mus musculus with 9 samples.

Results

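Melanin synthesis genes, which are genes of pigment cells that can stay attached to a dissected retina, were followed in bulk RNA from mouse retina. How far they measure the amount of such cells was not tested. The group was fixed by name: Tyr, Tyrp1, Dct, Pmel, Mlana, Slc45a2, Slc24a5, Oca2 and Mitf, 9 genes of the 35397 in the table, and all 9 had a row. The samples were 4 libraries of db/db retina (db/db 1, 3, 4 and 5) and 5 libraries of wild-type retina (wild type 1 to 5). The db/db mouse carries an inactive leptin receptor, which makes it obese and diabetic. The labels give no age, sex or strain background and do not tie libraries to animals, so the p-values cover only variation among these libraries, which may be technical. Expression was given as FPKM, fragments scaled by the length of the gene model and the depth of the library.

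Melanin is made inside melanosomes, organelles of pigment cells. Among these cells are the retinal pigment epithelium and melanocytes in the choroid, iris and ciliary body. The neural retina itself makes none, and the pigment epithelium lies against the photoreceptor outer segments, so that some of it can come away with a dissected retina. Tyrosinase (Tyr) carries out the rate-limiting step from tyrosine, and its paralogs Tyrp1 and Dct act later in eumelanin synthesis. Pmel forms the fibrils on which pigment is laid down, and Mlana is a melanosome protein needed for the processing of Pmel. Slc45a2, Slc24a5 and Oca2 encode transporters that set the ion and proton balance of the melanosome. Mitf is the transcription factor of the pigment cell lineage and binds E-boxes of the form CATGTG in the promoters of its targets.

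The promoters of the tyrosinase family are shown because the 3 enzymes share such an E-box before the start of transcription. RefSeq promoter windows (GRCm38.p6, 250 bases before to 50 bases after the start) were found for 6 of the 9 genes. The windows of Tyr (chr7:87493463-87493762, minus strand), Tyrp1 (chr4:80833963-80834262, plus strand) and Dct (chr14:118052197-118052496, minus strand) read 5′ to 3′ as follows, with capitals for CATGTG, read on either strand, and for the letters around it that are shared.
Tyr: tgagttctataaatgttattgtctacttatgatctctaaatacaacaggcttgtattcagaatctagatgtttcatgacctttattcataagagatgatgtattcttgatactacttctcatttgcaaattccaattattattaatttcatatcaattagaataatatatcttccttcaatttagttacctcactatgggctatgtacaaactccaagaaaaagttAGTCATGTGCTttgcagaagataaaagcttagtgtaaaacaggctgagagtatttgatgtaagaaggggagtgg
Tyrp1: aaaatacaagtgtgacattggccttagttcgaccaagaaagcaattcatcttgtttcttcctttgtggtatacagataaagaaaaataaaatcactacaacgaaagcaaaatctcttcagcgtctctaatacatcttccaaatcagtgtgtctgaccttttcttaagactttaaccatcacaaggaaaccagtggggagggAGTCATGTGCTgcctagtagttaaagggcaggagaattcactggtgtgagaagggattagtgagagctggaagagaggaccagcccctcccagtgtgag
Dct: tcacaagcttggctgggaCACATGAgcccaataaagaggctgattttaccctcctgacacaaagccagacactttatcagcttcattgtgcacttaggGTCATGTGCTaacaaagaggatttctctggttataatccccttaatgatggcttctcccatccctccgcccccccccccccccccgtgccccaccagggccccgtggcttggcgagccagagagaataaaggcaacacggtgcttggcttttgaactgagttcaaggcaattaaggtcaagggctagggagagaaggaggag
The longest run around CATGTG that all 3 windows hold is GTCATGTGCT, which starts at -23 in Tyr, -48 in Tyrp1 and -152 in Dct, counted from the start of transcription. Tyr and Tyrp1 share 1 letter more, AGTCATGTGCT. The run of all 3 was found, on either strand, in 0.186% of 32851 promoter windows and the longer run in 0.0213%, while CATGTG alone, which lies inside both, was found in 14.2%. Dct holds a second CATGTG on the other strand. Slc24a5 and Oca2 hold CATGTG on the other strand, at -13 and -186, without the longer run, and the 3 windows of Mitf hold none. These are matches of letters, and the run was chosen from these windows.

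In all 9 libraries the pigment genes were detected, at levels that differed between genes by more than 10-fold per length. In bulk RNA, the number of pigment cells and the RNA in each cannot be told apart. In db/db 1 the mRNAs of Pmel, Tyrp1, Dct and Mlana stood 2.60 to 3.63 times higher than the mean of the other 8 libraries, while those of Slc24a5 and Mitf did not. No gene of the group differed between db/db and wild type beyond the threshold, a limma p under 0.05 after adjustment over all tested genes. Oca2 was higher in 3 of 4 db/db libraries than in any wild-type library, and in the fourth lay within the wild-type range.

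Of the tyrosinase family, Tyrp1 (ENSMUSG00000005994, chromosome 4, 80834123 to 80851719, mm10 for all positions of genes) had 15.4, 7.05, 6.32 and 6.53 FPKM in db/db 1, 3, 4 and 5, against 6.68, 4.09, 6.47, 6.35 and 3.82 FPKM in wild type 1 to 5. The groups overlapped, with wild type 2 and 5 the lowest. On the log2(FPKM + 1) scale its change, db/db minus wild type, was 0.54 (SE 0.26, limma adjusted p = 0.284; exact two-sided permutation p = 0.0952), and 0.26 (SE 0.16, adjusted p = 0.311) without db/db 1. Dct, dopachrome tautomerase (ENSMUSG00000022129, chromosome 14, 118012790 to 118052244), had 14.8, 5.50, 5.20 and 5.64 FPKM in db/db 1, 3, 4 and 5, against 6.52, 4.18, 4.56, 5.65 and 5.01 FPKM in wild type 1 to 5. Only db/db 1 lay outside the range of wild type. The log2 change of Dct was 0.40 (SE 0.26, limma adjusted p = 0.428), and 0.07 (SE 0.11, adjusted p = 0.697) without db/db 1. Tyr itself (ENSMUSG00000004651, chromosome 7, 87424771 to 87493512) was low, at 1.05, 0.948, 0.489 and 0.723 FPKM in db/db 1, 3, 4 and 5, against 0.947, 0.442, 0.848, 0.791 and 0.608 FPKM in wild type 1 to 5. The groups spanned nearly the same range, and db/db 1 was the highest by a small margin. With a mean of 0.761 FPKM Tyr lay under the filter of 1 FPKM, and limma without a filter put its log2 change at 0.06 with an SE of 0.12 (adjusted p = 0.852).

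Pmel, the fibril protein gene (ENSMUSG00000025359, chromosome 10, 128704195 to 128720238), had 28.4, 8.67, 10.1 and 10.5 FPKM in db/db 1, 3, 4 and 5, against 8.44, 6.44, 8.55, 7.79 and 7.77 FPKM in wild type 1 to 5. All db/db libraries lay above all wild-type libraries, by a narrow margin for db/db 3. Such separation in either direction occurred in 11.6% of the 14588 genes tested. The means were 14.4 ± 9.37 FPKM (SD, n = 4) in db/db and 7.80 ± 0.840 FPKM (SD, n = 5) in wild type. The log2 change was 0.66 (SE 0.29, limma adjusted p = 0.249), and an exact two-sided permutation test gave p = 0.00794, the smallest that 4 against 5 libraries allow. Without db/db 1 the change was 0.29 (SE 0.09, adjusted p = 0.0666).

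Mlana (ENSMUSG00000024806, chromosome 19, 29697824 to 29708634) had 10.2, 2.81, 3.45 and 2.17 FPKM in db/db 1, 3, 4 and 5, against 2.91, 2.66, 2.74, 2.73 and 3.03 FPKM in wild type 1 to 5. Apart from db/db 1, the db/db values lay on both sides of the wild-type values, which had an SD of 0.152 FPKM (n = 5). The log2 change of Mlana was 0.38 (SE 0.31, limma adjusted p = 0.516), and -0.014 (SE 0.10, adjusted p = 0.938) without db/db 1.

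**Figure D1:**
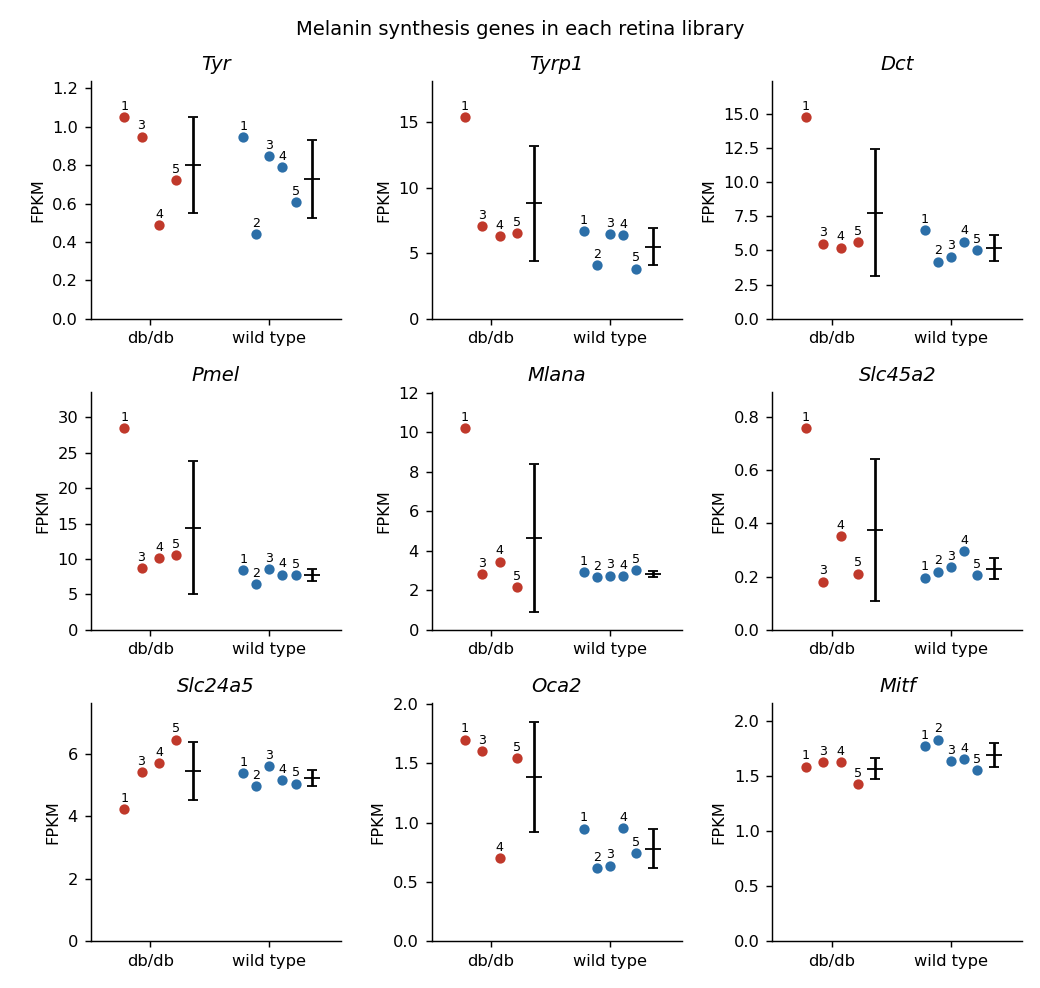
FPKM of the 9 melanin synthesis genes in each library, db/db (red) left of wild type (blue), with the library number above each point and the mean ± SD as a black bar (n = 4 and 5). Each panel has its own axis from 0. db/db 1 stands apart in Tyrp1, Dct, Pmel, Mlana and Slc45a2, at 28.4 FPKM for Pmel, and db/db 4 is the lowest db/db library in Oca2, at 0.699 FPKM.

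Among the transporters, Oca2 (ENSMUSG00000030450, chromosome 7, 56239760 to 56536518) had 1.70, 1.61, 0.699 and 1.54 FPKM in db/db 1, 3, 4 and 5, against 0.950, 0.616, 0.636, 0.954 and 0.742 FPKM in wild type 1 to 5. db/db 1, 3 and 5 lay above all wild-type libraries and db/db 4 among them, so the groups overlapped. The means were 1.39 ± 0.464 FPKM (SD, n = 4) in db/db and 0.780 ± 0.164 FPKM (SD, n = 5) in wild type. The log2 change was 0.41 (SE 0.14, limma adjusted p = 0.173, exact permutation p = 0.0397). With a mean of 1.05 FPKM over all libraries, Oca2 passed the filter of 1 FPKM only through its level in db/db. Without a filter its limma adjusted p was 0.325. The fold of FPKM + 1 had 95% bounds of 1.06 and 1.65. The log2 change was 0.34 (limma adjusted p = 0.159) without db/db 1, and 0.56 (adjusted p = 0.0667) without db/db 4.

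Slc45a2 (ENSMUSG00000022243, chromosome 15, 11000721 to 11029233) was the lowest of the group, with 0.756, 0.181, 0.350 and 0.211 FPKM in db/db 1, 3, 4 and 5, against 0.196, 0.218, 0.235, 0.294 and 0.206 FPKM in wild type 1 to 5. These values stand for 104, 24, 43 and 23 reads in the db/db libraries and 28 to 39 reads in the wild-type libraries. db/db 1 was 3.20 times the mean of the other libraries, and the rest overlapped. Slc45a2 also lay under the filter, and its log2 change without one was 0.14 (SE 0.11, limma adjusted p = 0.662).

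Slc24a5 (ENSMUSG00000035183, chromosome 2, 125068124 to 125088677) went the other way in db/db 1, with 4.23, 5.42, 5.72 and 6.47 FPKM in db/db 1, 3, 4 and 5, against 5.38, 4.97, 5.62, 5.17 and 5.06 FPKM in wild type 1 to 5. db/db 1 was the lowest of all libraries and db/db 5 the highest. The log2 change was 0.04 (SE 0.10, limma adjusted p = 0.837), and 0.14 (SE 0.06, adjusted p = 0.170) without db/db 1. The exons of Myef2, a repressor of transcription of myelin basic protein, cover 39.5% of the exon length of Slc24a5 on the opposite strand, and Myef2 averaged 12.6 FPKM. Myef2 was likewise lowest in db/db 1, at 8.16 FPKM, where the other libraries had 12.5 to 13.9 FPKM. The sources used here do not name the strand of counting, so the reads of the pair may not be separate, and how much of the Slc24a5 value belongs to Myef2 was not tested. No other member shared more than 4.58% of its exon length with any one gene.

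Mitf (ENSMUSG00000035158, chromosome 6, 97807052 to 98021349), the factor that acts on the promoters above, varied little, from 1.43 to 1.63 FPKM in db/db and from 1.55 to 1.84 FPKM in wild type. The means were 1.57 ± 0.0956 FPKM (SD, n = 4) in db/db and 1.69 ± 0.112 FPKM (SD, n = 5) in wild type, and the groups overlapped. The log2 change was -0.07 (SE 0.06, limma adjusted p = 0.574), and the fold had 95% bounds of 0.865 and 1.05. db/db 1 had 1.59 FPKM, inside the range of the other libraries. A gene total does not separate the isoforms of Mitf that start at different promoters.

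Of the 7 genes tested none was called, where 0.500% of all tested genes were called (34 genes above and 39 below wild type). Without a filter none of the 9 was called, where 0.0254% of 35397 genes were, 0.0198% higher and 0.00565% lower. At an unadjusted p under 0.05, limma counted 2 of the 7, Pmel and Oca2, beside 19.3% of all tested genes. On recovered reads limma-voom called 0 and counted 2. Oca2 is among the 7 only through its level in db/db, since it averaged 0.780 FPKM in wild type. The counts and medians over the 7 thus hold a gene whose entry depended on the compared groups. The change was positive in 6 of the 7 genes with a median of 0.40, against 50.7% positive and a median of 0.0035 over all tested genes. The median over the 7 genes was 0.14 without db/db 1, with 5 positive, none was called, and 10.6% of all tested genes were.

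**Figure D2:**
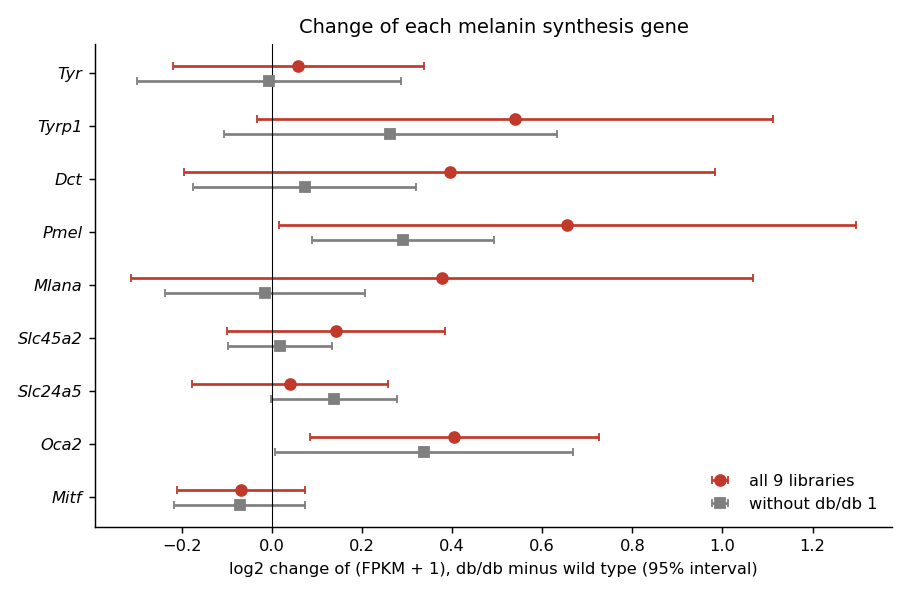
Log2 change of FPKM + 1 in db/db minus wild type for each gene, with its 95% interval from limma, for all 9 libraries (red circles) and without db/db 1 (grey squares). Tyr and Slc45a2 come from the fit without a filter. The changes of Tyrp1, Dct, Pmel and Mlana are smaller without db/db 1, and that of Mlana is -0.014 without it, against 0.38 with all libraries.

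db/db 1 also differed from the other libraries across the whole table. Its deviation from the median library had an SD of 0.521 on the log2 scale, against 0.140 to 0.254 in the other 8, and fell with exon length (Spearman rho = -0.50 across 14588 genes, which are not independent replicates). Genes with exons of 2027 to 2413 bases were on median 0.38 higher on the log2 scale in db/db 1 than in the mean of the other 8 libraries, and those of 5762 to 6352 bases 0.09 lower (-0.09). The pigment genes stood against these medians of their own length as follows. Pmel, with 2292 bases, was 1.63 higher, and Slc24a5, with 2330 bases, had -0.31. Dct, with 5895 bases, was 1.33 higher, and Mitf, with 6196 bases, had -0.03. Mlana and Tyrp1, with 1057 and 2828 bases, were 1.55 and 1.24 higher, where genes of their lengths were on median 0.44 and 0.28 higher. A ratio above that of Pmel was found in 0.213% of tested genes, above that of Mlana in 0.267%, above that of Dct in 0.528% and above that of Tyrp1 in 0.871%. The 4 genes were chosen for this comparison after their values were seen.

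**Figure D3:**
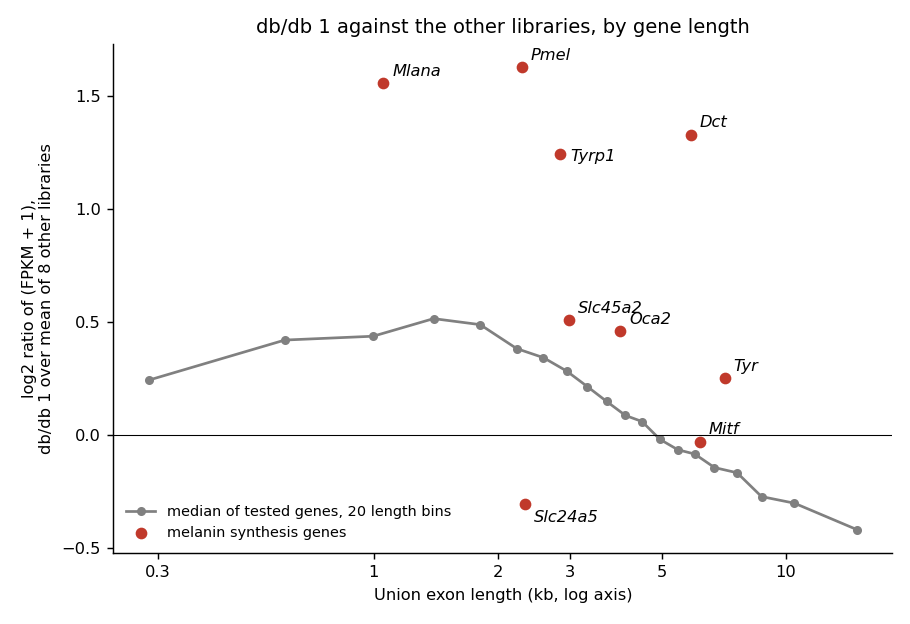
Log2 ratio of FPKM + 1 in db/db 1 over the mean of the other 8 libraries (vertical axis) against union exon length in kb (horizontal log axis). Grey points are medians of all tested genes in 20 length bins, and red points the melanin synthesis genes. Mlana, Pmel, Tyrp1 and Dct lie above 1.2, Slc24a5 lies below its bin at -0.31, and Mitf lies at -0.03. The scale understates the ratios of the low genes Slc45a2, Tyr and Oca2.

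Rod photoreceptor genes, which mark the retina itself, summed to 13986 to 15885 FPKM in db/db and 13509 to 14400 FPKM in wild type. The defining markers of the pigment epithelium were present in every library. Rpe65, the isomerase of the visual cycle, had 33.7, 20.9, 9.47 and 19.1 FPKM in db/db 1, 3, 4 and 5, against 17.8, 14.6, 14.2, 14.1 and 12.7 FPKM in wild type 1 to 5. Ttr, the carrier of retinol-binding protein, had 275, 116, 41.3 and 128 FPKM in db/db 1, 3, 4 and 5, against 122, 88.3, 83.9, 106 and 74.5 FPKM in wild type 1 to 5. In both genes db/db 1 was the highest and db/db 4 the lowest of all libraries. Other genes of the list went another way. Lrat, which esterifies retinol, was at 2.52, 2.41, 1.15 and 2.92 FPKM in db/db 1, 3, 4 and 5, and at 2.70 to 3.67 FPKM in wild type. Of the 18 tested genes of the list 10 were highest in db/db 1 and 4 were lowest there, among these Mertk, Sulf1 and Trpm3, where 41.3% of all tested genes were highest and 30.1% lowest in db/db 1. Ttr and Rpe65 (1186 and 1934 exon bases) had log2 ratios of 1.52 and 1.08 in db/db 1 over the mean of the other libraries. Genes of their lengths had medians of 0.44 and 0.49. Lrat and Sulf1 (5351 and 11294 exon bases) had -0.09 and -0.67, where genes of their lengths had medians of -0.07 and -0.30. The part of exon length in these values was not tested. Of 20 genes on the pigment epithelium list, 18 were tested and limma called none. At an unadjusted p under 0.05 it counted 4 of the 18, beside 19.3% of all tested genes. The median log2 change was 0.21, and -0.01 without db/db 1. Without db/db 1 Sulf1 and Rlbp1 (also on the Muller glia list) were called lower, 2 of the 18, beside 5.84% of all tested genes. The 3 with the smallest p were Sulf1, an extracellular sulfatase (-0.45, limma adjusted p = 0.0735; 0.0117 without db/db 1), Krt18, a simple-epithelium keratin (0.52, adjusted p = 0.175), and the amino acid transporter Slc6a20a (0.40, adjusted p = 0.175). Summed over the list, the level ran from 311 to 715 FPKM in db/db and from 358 to 457 FPKM in wild type.

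Defining markers of melanocytes were at low levels. Sox10, the neural crest factor of melanocytes, had 0.881, 0.287, 0.247 and 0.475 FPKM in db/db 1, 3, 4 and 5, against 0.849, 0.358, 0.410, 0.708 and 0.352 FPKM in wild type 1 to 5. It was highest in db/db 1, closely followed by wild type 1. Edn3, the ligand of the endothelin receptor Ednrb, was also highest in db/db 1, at 1.77 FPKM, where it had 0.699 to 1.06 FPKM in the other db/db libraries and 0.624 to 1.01 FPKM in wild type. Of the 11 genes of the list with a row, 4 were highest and 3 lowest in db/db 1. Of its 5 tested genes 1 was highest and 2 were lowest there, beside 41.3% and 30.1% of all tested genes. Pax3 did not exceed 0.0175 FPKM in any library. On this list 5 genes were tested, 2 of which, Mlana and Slc24a5, belong to the pigment genes themselves, and limma called none. At an unadjusted p under 0.05 it counted 2 of the 5, beside 19.3% of all tested genes. The summed level of the list ran from 16.8 to 24.4 FPKM in db/db and from 17.1 to 27.0 FPKM in wild type. Kitl, the ligand of the receptor Kit, had -0.27 (limma adjusted p = 0.203). Stromal genes of choroid and sclera summed to 22.3 to 44.0 FPKM in db/db and 21.3 to 46.7 FPKM in wild type. Of that list, Dcn, a proteoglycan of connective tissue, was highest in db/db 1 and 4, at 2.20 and 1.91 FPKM, where the other libraries had 0.319 to 0.864 FPKM, and it was named after its values were seen. The rest of the stroma list did not share this pattern, as 3 of its 10 genes were highest and 1 was lowest in db/db 1. Among its 5 tested genes 1 was highest and 1 lowest there, beside 41.3% and 30.1% of all tested genes. The part of these cells in the pigment gene values was not tested.

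The summed level of the 9 pigment genes was set against that of 9 pigment epithelium markers, to ask whether the sums move together. The markers were Rpe65, Best1, Rdh5, Lrat, Rgr, Ttr, Stra6, Kcnj13 and Slc16a8, from the list of 20. Of these 9 markers, 7 were highest and 0 lowest in db/db 1, where the list of 20 had 11 highest and 4 lowest. Those 4, Mertk, Otx2, Sulf1 and Trpm3, were not in the sum, so it does not stand for the whole list. The pigment genes summed to 78.1, 33.8, 34.0 and 35.2 FPKM in db/db 1, 3, 4 and 5, against 33.8, 25.5, 31.3, 31.4 and 27.8 FPKM in wild type 1 to 5. The markers summed to 398, 196, 76.5 and 208 FPKM in db/db 1, 3, 4 and 5, against 195, 143, 133, 169 and 118 FPKM in wild type 1 to 5. db/db 4 thus had the lowest marker sum with a pigment sum like that of db/db 3, and its ratio of pigment to marker FPKM was 0.444, where the other libraries had 0.170 to 0.236. Over 9 libraries Pearson's r was 0.90 (exact permutation p = 0.0200, adjusted p = 0.0399) and Spearman's rho 0.60 (exact permutation p = 0.0968, adjusted p = 0.194), adjusted over 10 relations. In the 7 libraries without db/db 1 and db/db 4, which lay farthest from the median marker sum, r was 0.82 and rho 0.89 (exact permutation p = 0.0200 and 0.0123). Leaving out db/db 1 alone gave r = 0.37 and rho = 0.43 (exact permutation p = 0.362 and 0.299), and leaving out db/db 4 alone gave r = 0.97 and rho = 0.93 (exact permutation p = 0.00131 and 0.00223). The value thus depends on both libraries. Ttr made up 53.9% to 69.1% of the marker sum in db/db and 61.5% to 63.2% in wild type, and with the sum of the other 8 markers, a choice made after seeing the data, r was 0.84 and rho 0.57 (exact permutation p = 0.0152 and 0.121).

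The pigment genes differed in this respect, in a comparison added after the values were seen. Oca2 had r = 0.78 and rho = 0.82 with the marker sum over 9 libraries (exact permutation p = 0.000551 and 0.0108, adjusted p = 0.00551 and 0.0538 over 10 relations), r = 0.84 without the 2 farthest libraries and r = 0.77 without db/db 1 (exact permutation p = 0.0237, adjusted p = 0.132 over the 9 genes). Tyr had r = 0.72 and rho = 0.68 (exact permutation p = 0.0127 and 0.0503, adjusted p = 0.0383 and 0.126), r = 0.54 without the 2 farthest libraries and r = 0.68 without db/db 1 (exact permutation p = 0.0688). Tyrp1 and Dct had r = 0.90 and 0.92 (adjusted exact permutation p = 0.0383 for each) and rho = 0.83 and 0.70 (adjusted p = 0.0538 and 0.126), and without the 2 farthest libraries r = 0.74 and 0.73. Their r was 0.43 and 0.55 without db/db 1. Mlana and Slc45a2, with r = 0.83 and 0.76 over 9 libraries (adjusted exact permutation p = 0.137 for each) and rho = -0.13 and -0.10, had r = -0.75 and -0.66 without db/db 1 (adjusted p = 0.132 and 0.168 over the 9 genes) and r = -0.51 and -0.24 without the 2 farthest. Pmel had r = 0.88 and rho = 0.52 (adjusted exact permutation p = 0.0816 and 0.270), r = 0.64 without the 2 farthest and r = 0.057 without db/db 1 (exact permutation p = 0.886). Slc24a5 and Mitf had r = -0.51 and -0.18 with rho = -0.15 and -0.17 (adjusted exact permutation p from 0.196 to 0.810), r = 0.59 and -0.19 without the 2 farthest, and r = 0.27 and -0.10 without db/db 1.

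**Figure D4:**
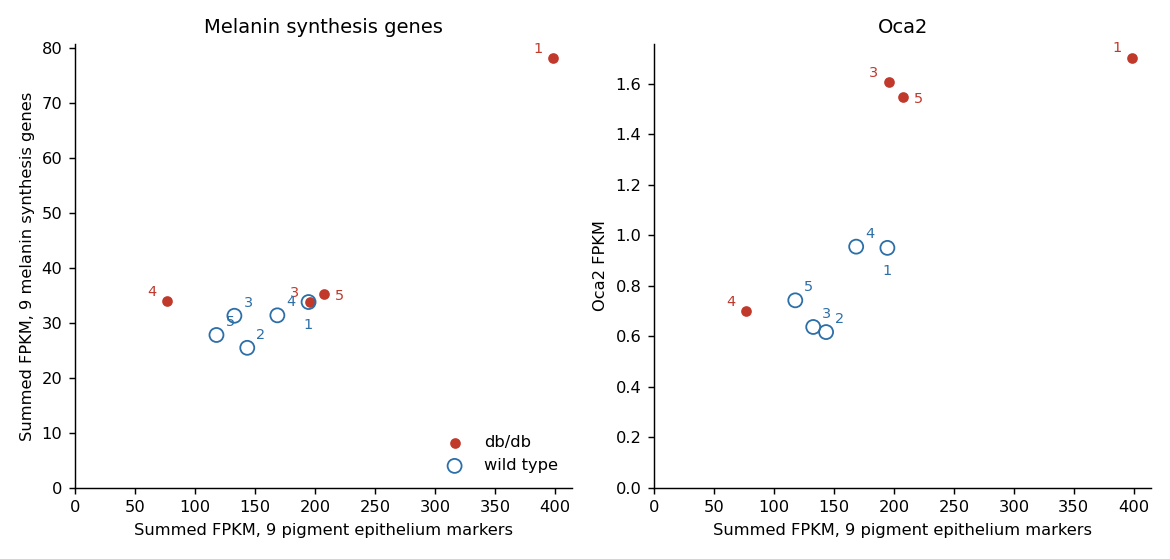
Summed FPKM of the 9 melanin synthesis genes (left) and FPKM of Oca2 (right) against the summed FPKM of 9 pigment epithelium markers, 1 point per library with its number (db/db filled red, wild type open blue). db/db 1 lies at 398 and 78.1 FPKM in the left panel. db/db 4 has the lowest marker sum, 76.5 FPKM, beside a pigment sum of 34.0 FPKM and an Oca2 level of 0.699 FPKM.

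Among themselves, 7 of the 36 pairs of pigment genes had a Pearson's r over 0.9 across the 9 libraries on the log2(FPKM + 1) scale, and 0 of 36 without db/db 1. Each of these pairs joins 2 of Tyrp1, Dct, Pmel, Mlana and Slc45a2. These are descriptions over shared libraries. The genes whose pattern was most like the mean of the 9 pigment genes, each first centred and scaled over libraries, leaving out predicted genes and pseudogenes, were Limd2 (r = 0.99), Paqr7, Cdc123, Slc9a3r1, Tsc22d4, Ptpa, Psme1 and Acadl (r = 0.98 for each), all of them highest in db/db 1. Limd2 was at 5.40 FPKM in db/db 1 and at 2.82 to 3.42 FPKM in the other db/db libraries, against 2.48 to 3.51 FPKM in wild type. An r over 0.9 with that mean was found in 5.79% of tested genes, and in 0.117% without db/db 1.

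Of 29 other genes of melanosome formation, transport and control, 21 were tested and limma called none. At an unadjusted p under 0.05 it counted 5 of the 21, beside 19.3% of all tested genes. The change was positive in 12, with a median of 0.05. Tfeb, a relative of Mitf, had 0.23 (limma adjusted p = 0.167), Gpnmb, a paralog of Pmel, 0.50 (adjusted p = 0.194), and Hps3, a subunit of the melanosome biogenesis complex BLOC-2, -0.17 (adjusted p = 0.196). Gpnmb had 10.2, 4.71, 5.93 and 5.70 FPKM in db/db 1, 3, 4 and 5, and 3.63 to 5.61 FPKM in wild type, with db/db 1 the highest. Atp7a, a copper transporter that supplies tyrosinase, was the lowest in db/db 1, at 0.223 FPKM, and had 1.38 to 1.44 FPKM in the other db/db libraries and 1.30 to 1.51 FPKM in wild type. Of the 21 tested genes 8 were highest in db/db 1 and 8 were lowest there, among these Myo5a, Myo7a, Lyst and Tpcn2. Over all tested genes 41.3% were highest and 30.1% lowest in db/db 1. Gpr143, the receptor of ocular albinism and a pigment cell gene, lay under the filter, at 0.761, 0.473, 0.268 and 0.520 FPKM in db/db 1, 3, 4 and 5 and 0.221 to 0.503 FPKM in wild type. Tfec, another relative of Mitf, did not exceed 0.0388 FPKM. Without db/db 1, 1 gene of the list rose and 1 fell, where 4.72% and 5.84% of all tested genes did. These were Tpcn2, a cation channel of melanosomes and lysosomes (0.62, limma adjusted p = 0.0182), and Bloc1s6, a subunit of BLOC-1 (-0.24, adjusted p = 0.0369), both named after their values were seen, as were Lrat, Edn3, Atp7a and the genes given as lowest in db/db 1.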

How the data were processed

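Retinal RNA was prepared with a Qiagen kit and SMARTER libraries, per the labels' protocols. The authors deposited FPKM values for 35397 genes and 9 libraries. The genome named is mm10, per the submitters' processing notes. Aligner, counter, annotation and strand of counting: not given in the sources used here. Columns are headed Control or DR and a number, and each was taken as the wild-type or db/db library whose title has that number, which no label states. Symbols for 34499 genes, positions and union exon lengths came from GENCODE M21, and promoters from RefSeq (GRCm38.p6). FPKM multiplied by exon length moved in whole-read steps, with 99.0% to 99.1% of values under 20 reads within 0.1 of a whole read. Depth recovered in this way ran from 36.6 to 47.9 M reads, and 62.5% to 66.2% of those low values were even, so a read need not be a separate fragment.

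Values were tested as log2(FPKM + 1) with limma 3.58.1 in R 4.3.3 (lmFit, eBayes with a trend) over the 14588 genes that averaged 1 FPKM or more, db/db against wild type, with Benjamini-Hochberg adjustment over all of them and a threshold of 0.05. Genes under the filter came from a fit of all genes. The log2 scale understates changes of low genes. Alternatives were another pseudocount, filter, trend, scaling or weighting, limma-voom on recovered reads, a block for the replicate number, and each library left out in turn. Length and GC corrections (20 bins) and the marker sum without Ttr were chosen after seeing the data. The steps were tested on simulated data. The members, the 9 other lists and the naming rule (all members, the tested genes of smallest p in each list, and the 8 genes most like the members) were chosen with earlier results of these data known. A gene that the rule names is not reported here. Plots used matplotlib 3.10.9 (Python 3.11.15).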

Additional observations from a re-analysis of the deposited data

Results flagged for a closer look

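Single libraries far from their own group were looked for at the 95% critical value of Dixon's ratio, in 18 sets of values (9 genes in each of 2 groups). In 5 sets 1 library stood out, where the critical value alone gives about 1 in 20. The share of such sets over all genes was not computed. Over all tested genes db/db 1 was the highest library in 41.3% and the lowest in 30.1%. These shares count rank only, not how far a value lies. The log2 ratio of FPKM + 1 in db/db 1 over the mean of the other libraries was above 1 in 2.98% of tested genes. It was below -1 in 2.83%. In db/db 1, Tyrp1 (15.4 FPKM, next 7.05), Dct (14.8 FPKM, next 5.64), Pmel (28.4 FPKM, next 10.5) and Mlana (10.2 FPKM, next 3.45) were far above the other db/db libraries. Oca2 in db/db 4 was far below them (0.699 FPKM, next 1.54). The wild-type libraries gave no such value for these 9 genes. The genes share libraries, so these are not independent.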

How the results depend on the processing

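No pigment gene was called under any of the 21 alternatives. The median log2 change over the tested genes ran from 0.13 to 0.52 (0.14 to 0.52 over the 9 left-out libraries), and was positive in each. The changes of Tyrp1, Dct, Pmel, Oca2 and Slc45a2 kept their sign under every alternative that gave a value. That of Mitf was 0.020 with the GC correction. That of Mlana ran from -0.014 (without db/db 1) to 0.59 over the left-out libraries. That of Slc24a5 ran from -0.033 (without db/db 5) to 0.14 and was -0.047 with the length correction. That of Tyr ran from -0.0066 (without db/db 1) to 0.15, and was -0.0043 without wild type 2. It was the same with the replicate block, which also leaves out wild type 2. Same-numbered libraries had deviations correlated at 0.04, 0.05, -0.18 and 0.13 (numbers 1, 3, 4 and 5). Differently numbered pairs ran from -0.21 to 0.18. With so few libraries these values cannot tell whether same-numbered libraries share more than a number. With the replicate block the median was 0.36, the same as without wild type 2. Over all tested genes, 34 were called higher and 39 lower, against 2 and 0 with the replicate block, 7 and 2 with no filter, 17 and 13 with the filter at 5 FPKM, 550 and 656 with array weights, 46 and 64 with limma-voom, 234 and 199 with the length correction (1040 and 937 without db/db 1) and 5 and 1 with the GC correction. The counts were 688 and 852 without db/db 1, and no more than 8 and 5 without any other library. The count of called genes on the other lists was 0 with all libraries, 8 with array weights and 3 with the length correction. It was 9 with that correction and db/db 1 left out. Over the left-out libraries it ran from 0 to 10, the 10 being without db/db 1. These lists had 5 to 21 tested genes each, and 10.6% of all tested genes were called without db/db 1. The correlation of pigment and pigment epithelium sums ran from 0.37 (without db/db 1) to 0.97 (without db/db 4) and was 0.84 with Ttr left out of the sum. With both sums as log2(summed FPKM + 1) it was 0.74 (exact permutation p = 0.0410). Length and GC corrections were not run for Tyr and Slc45a2, and the filter at 5 FPKM removed Mlana, Oca2 and Mitf. With 23 to 104 reads, Slc45a2 is limited by counting.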

Other observations

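Markers of other cells near the retina were measured beside the pigment genes, and with all 9 libraries limma called none on these 6 lists (0 to 4 per list at an unadjusted p under 0.05). At that unadjusted level limma counted 19.3% of all tested genes. Aqp1, a water channel on the ciliary and iris list, had a log2 change of 0.40 (limma adjusted p = 0.0735; 0.0342 without db/db 1), and Cp, ceruloplasmin, had -0.38 (adjusted p = 0.126). On the stroma list Mgp had -0.23 (adjusted p = 0.330; 0.0131 without db/db 1) and Pdgfra -0.05 (adjusted p = 0.686). On the endothelial list Slc2a1 had 0.19 (adjusted p = 0.167) and Cldn5 0.26 (adjusted p = 0.638). On the rod list Sag, arrestin, had -0.28 (adjusted p = 0.124; 0.0429 without db/db 1) and Nr2e3 -0.37 (adjusted p = 0.211). On the Muller glia list the glutamate transporter Slc1a3 had -0.34 (adjusted p = 0.0974; 0.0212 without db/db 1) and Glul 0.18 (adjusted p = 0.178). Without db/db 1, limma also called Kdr (0.18, adjusted p = 0.0386), Aqp4 (0.31, adjusted p = 0.0235) and Rlbp1 (-0.20, adjusted p = 0.0456) on these lists. These 3 were named after their values were seen. In that fit 10.6% of all tested genes were called, so the calls are not particular to these lists.

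Lens crystallins varied far more between libraries than the pigment genes. Summed over the 10 lens genes the level ran from 2.81 to 245 FPKM in db/db and from 2.48 to 120 FPKM in wild type. Cryaa was at 40.0, 5.49, 0.632 and 105 FPKM in db/db 1, 3, 4 and 5, against 15.0, 1.80, 0.517, 25.4 and 43.3 FPKM in wild type 1 to 5. db/db 5, the highest in Cryaa, was the highest library in 1 of the 9 pigment genes, Slc24a5, and db/db 1 in 7 of them. Crybb1 had a log2 change of 0.48 (limma adjusted p = 0.675) and Crybb2 of 0.77 (adjusted p = 0.742).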
